A study of Mus musculus with 12 samples.

Results

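Slc6a18 and Slc6a19 are neighbouring genes on mouse chromosome 13 that encode related amino acid transporters. They were taken by position, as the minus-strand transcripts that overlap a window of the mm9 build around both genes; these are 9 of the 55418 transcripts in the deposited table. Summed over overlapping rows, these are 2 of 26699 loci: Slc6a18 from 73799197 to 73815471 with 7 transcripts, and Slc6a19 from 73818604 to 73838143 with 2. RNA was sequenced from 12 samples of kidney cells carrying the R26R-tdTomato reporter and taken on postnatal day 0, all isolated by flow cytometry as Six2-expressing cells. The titles name 4 groups, with 2 mutant high, 2 control high, 4 mutant low and 4 control low samples. The signal meant by high and low is not stated, and the sample labels name neither the mutated allele nor a Cre driver; Eed, a subunit of Polycomb repressive complex 2, is in the series title. Nothing in the labels ties each sample to its own animal, and a p-value here reflects the spread among these samples, which could be technical.

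The SLC6 family carries small molecules into cells by coupling their movement to that of sodium. Slc6a19, also called B0AT1, is the main carrier of neutral amino acids across the apical membrane of the early kidney tubule and the small intestine, and mutations of the human gene cause Hartnup disorder. Slc6a18, also called B0AT3, carries neutral amino acids such as glycine and alanine across the apical membrane of later proximal tubule. In kidney both depend on the membrane protein collectrin to reach the cell surface. They are genes of differentiated proximal tubule, whereas Six2 marks the nephron progenitors from which tubules form.

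The names rest on position. The Slc6a18 transcripts span 16274 bases, the same span as RefSeq gives the gene on GRCm38, while the Slc6a19 transcripts span 19539 bases against 21036 in RefSeq. RefSeq places Slc6a19 next to Slc6a18 on that build, with Clptm1l and Tert on one side and Slc6a19os and Slc12a7 on the other. The longest coding sequences of the 2 genes in GENCODE M21 lie on 12 exons each, hold 1845 bases in Slc6a18 and 1902 in Slc6a19, and were identical at 64.4% of 1829 aligned bases. The longest run of identical bases was 29 long. It lies in the stretch shown here because it is where a read would be hardest to assign to one of the genes. Capitals mark bases that are the same in both, and positions count from the first coding base (1228 to 1287 in Slc6a18, 1273 to 1332 in Slc6a19).
Slc6a18: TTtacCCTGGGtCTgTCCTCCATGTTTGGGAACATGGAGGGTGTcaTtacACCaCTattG
Slc6a19: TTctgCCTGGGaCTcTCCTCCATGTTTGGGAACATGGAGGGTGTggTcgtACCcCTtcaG
No stretch of 50 bases was shared by transcripts of the 2 genes. Of the 50-base stretches in transcripts of one gene, 0.452% for Slc6a18 and 0 for Slc6a19 occurred in transcripts of any other annotated gene.

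Libraries held 4549011 to 12365078 fragments. Control high cells gave the fewest, 6249263 and 4549011, of which chromosome M took 4.51% and 10.3%, compared with 0.494% to 1.96% in the other 10 libraries. The transcript identifiers could not be matched to gene names, so neither cell type markers nor the mutated gene served to check the labels, and the other amino acid transporters were not analysed here. In sorted bulk samples, fewer cells of a type and less RNA per cell cannot be told apart.

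Both genes were far more abundant in high than in low cells, and in each population their group means were lower in mutant than in control cells. Levels are in CPM, fragments scaled to a common library size after correction for library composition. Slc6a18 stood at 143 and 187 CPM in mutant high, at 1123 and 635 CPM in control high, at 1.04, 0.914, 0.778 and 0.406 CPM in mutant low and at 20.3, 35.1, 6.48 and 13.4 CPM in control low libraries. No library of one group overlapped with another group, which between the 2 low groups was a condition of the naming rule described below. The share of all loci whose groups lie apart in this way was not counted. The order of the group means was control high, mutant high, control low and mutant low. Slc6a19 stood at 48.4 and 36.7 CPM in mutant high, at 209 and 167 CPM in control high, at 1.15, 1.37, 2.22 and 0.325 CPM in mutant low and at 4.09, 6.52, 2.16 and 2.87 CPM in control low libraries. Its groups followed the same order, but mutant low replicate 3 lay above control low replicate 3, so the low groups overlapped.

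**Figure D1:**
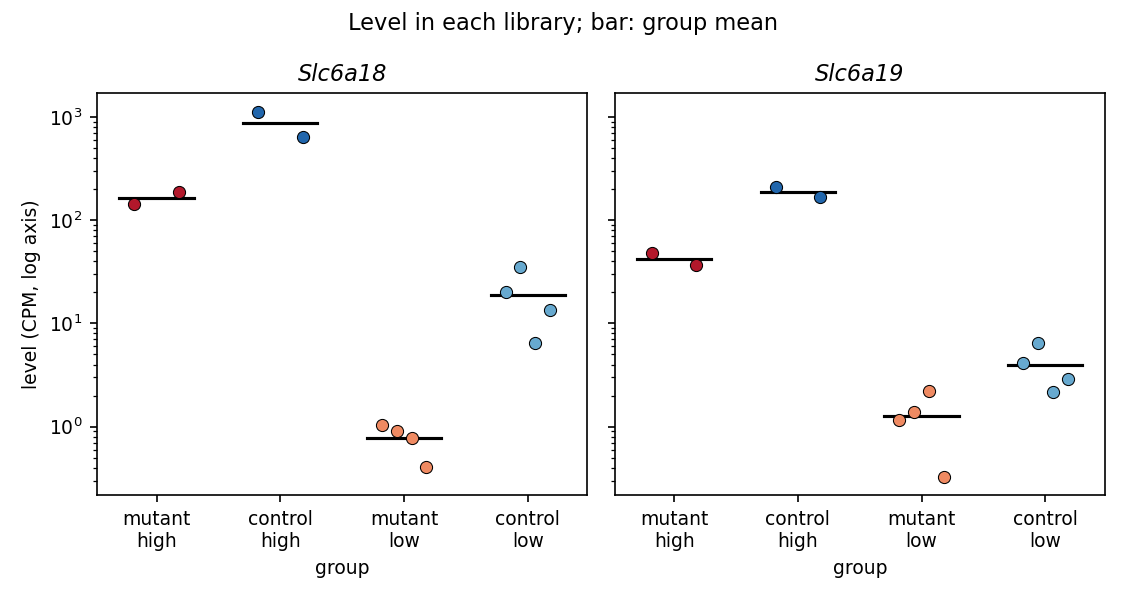
Level of each gene in each library (points) with group means (bars), in CPM on a log axis, for the 4 groups on the horizontal axis. Slc6a18 runs from 0.406 CPM in a mutant low library to 1123 CPM in a control high library, and the mutant low and control low points of Slc6a19 overlap between 2.16 and 2.22 CPM.

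In the low population Slc6a18 had the larger difference. It averaged 0.784 ± 0.274 CPM in mutant low and 18.8 ± 12.2 CPM in control low cells (SD, n = 4 each), so the mutant mean was 4.17% of the control mean, and the log2 fold change was -4.60 (SE 0.53). Slc6a19 averaged 1.27 ± 0.780 CPM in mutant low and 3.91 ± 1.91 CPM in control low cells (SD, n = 4 each), which is 32.4%, with a log2 fold change of -1.64 (SE 0.45). The median over all 13749 loci tested was -0.06.

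The genes were chosen by the low value of Slc6a18 in this comparison, so no test is given for it. Slc6a18 had the fourth largest fall among 149 loci that met an earlier naming rule (adjusted p under 0.05 in edgeR's quasi-likelihood test, a change of at least 2 times, at least 5 CPM on average and no overlap). The last of the 8 loci named by that rule had a log2 fold change of -4.35 and the next one -4.13. Slc6a19 was not among the 149. Over all loci, 3.21% were called lower in mutant low cells.

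The mutant low values rest on few fragments. Slc6a18 had 9, 6, 7 and 5 fragments in the mutant low libraries, against 174, 258, 60 and 163 in the control low libraries. For Slc6a19 the fragments were 10, 9, 20 and 4 in mutant low and 35, 48, 20 and 35 in control low libraries. In mutant low cells the counting interval (exact Poisson, 95%) was 4.12 to 17.1 fragments for the highest Slc6a18 value and 1.62 to 11.7 for the lowest. For the control low library with 60 fragments it was 45.8 to 77.2. No overlap between the low groups was a condition of naming Slc6a18, so these intervals are not separate evidence for it. Intervals cover counting error only.

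The low libraries were split at description number 7, a cut chosen after the data were seen. At numbers 4, 6, 8 and 10 the control low libraries held 20.3, 35.1, 6.48 and 13.4 CPM of Slc6a18. These values did not fall steadily with the number. Those numbered up to 7 averaged 27.7 CPM of Slc6a18 and 5.31 CPM of Slc6a19, and those above 7 averaged 9.93 and 2.52 CPM (n = 2 each). In the mutant low libraries the means were 0.977 CPM up to 7 and 0.592 CPM above 7 for Slc6a18, and 1.26 and 1.27 CPM for Slc6a19. Within numbers up to 7 the log2 fold change of mutant low over control low was -4.79 for Slc6a18 and -2.06 for Slc6a19, and above 7 it was -4.10 and -1.08. The labels do not say that these numbers mark a batch.

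In the high population both genes fell in mutant cells. Slc6a18 averaged 165 ± 31.3 CPM in the mutant high group and 879 ± 345 CPM in the control high group (SD, n = 2 each). Its log2 fold change was -2.41 (SE 0.58, edgeR quasi-likelihood adjusted p = 0.00871). Slc6a19 averaged 42.5 ± 8.29 CPM in the mutant high group and 188 ± 29.7 CPM in the control high group (SD, n = 2 each), a log2 fold change of -2.14 (SE 0.53, edgeR quasi-likelihood adjusted p = 0.00870). The spread was estimated from all 12 samples, so these p-values are not free of the low libraries in which Slc6a18 was named. With the 2 high groups alone, the edgeR quasi-likelihood adjusted p was 0.00173 for Slc6a18 and 0.00117 for Slc6a19. Each high library also shares its description number with a low library of its genotype, so independence from that naming is not established. Mutant means were 18.8% of control means for Slc6a18 and 22.6% for Slc6a19. Each gene was lower in both mutant high libraries than in either control high library. Such separation is common by chance with 2 against 2 (exact permutation p = 0.333, two-sided), and its share over all loci was not counted. By the edgeR test, 11.2% of all loci were called lower in this comparison, where the median log2 fold change was 0.08.

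With 2 samples a group the calls depended on single libraries. The call at Slc6a18 was lost without control high replicate 1 (log2 fold change -1.91, edgeR adjusted p = 0.0639), without mutant high replicate 1 (-2.23, edgeR adjusted p = 0.0728) and without mutant high replicate 2 (-2.61, edgeR adjusted p = 0.0539). That at Slc6a19 was lost without control high replicate 1 (-1.93, edgeR adjusted p = 0.0528) and without mutant high replicate 2 (-1.94, edgeR adjusted p = 0.0889).

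High cells held more of both genes than low cells in either genotype. In control kidneys the log2 fold change of high over low cells was 5.55 (SE 0.50) for Slc6a18 and 5.60 (SE 0.47) for Slc6a19, and the control high mean was 46.7 times the control low mean for Slc6a18 and 48.1 times for Slc6a19. In mutant kidneys the genes differed more. The log2 fold change of mutant high over mutant low cells was 7.74 (SE 0.59) for Slc6a18 and 5.10 (SE 0.49) for Slc6a19, and the mutant high mean was 211 times the mutant low mean for Slc6a18 and 33.5 times for Slc6a19. Mutant low cells thus held 0.475% of the Slc6a18 level of mutant high cells, whereas control low cells held 2.14% of that of control high cells. For Slc6a19 these shares were 2.98% in mutant and 2.08% in control kidneys. The mutant effect in high minus that in low cells was 2.19 on the log2 scale (SE 0.76) for Slc6a18 and -0.50 (SE 0.70) for Slc6a19. With the description number as a block, over the 8 libraries that share one, it was 1.57 for Slc6a18. These comparisons use the low samples in which Slc6a18 was named earlier and are given without a test.

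The ratio of the genes within a library needs no scaling for depth, and it was lowest in the mutant low libraries. It is imprecise there, with 5 to 9 fragments of Slc6a18 and 4 to 20 of Slc6a19. Libraries held 2.95 and 5.10 Slc6a18 fragments per Slc6a19 fragment in mutant high, 5.37 and 3.80 in control high, 0.905, 0.684, 0.366 and 1.22 in mutant low and 4.92, 5.33, 2.95 and 4.61 in control low cells, after 0.5 was added to each count. All 4 mutant low libraries lay below all 8 others, which ran from 2.95 to 5.37. The mean log2 ratio was -0.46 ± 0.74 in mutant low and 2.12 ± 0.38 in control low cells (SD, n = 4 each), a difference of -2.58. For the high cells it was 1.96 ± 0.56 in mutant and 2.18 ± 0.35 in control libraries (SD, n = 2 each), a difference of -0.22 that was within the spread between replicates (exact permutation p = 0.667, two-sided, where 2 against 2 cannot go below 0.333). That difference was 0.03 without control high replicate 1 and 0.18 without mutant high replicate 1. No test is given for the low groups, because this ratio holds the Slc6a18 values for which the gene was named earlier. A low ratio in mutant low cells follows in part from that naming and is not separate evidence.

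**Figure D2:**
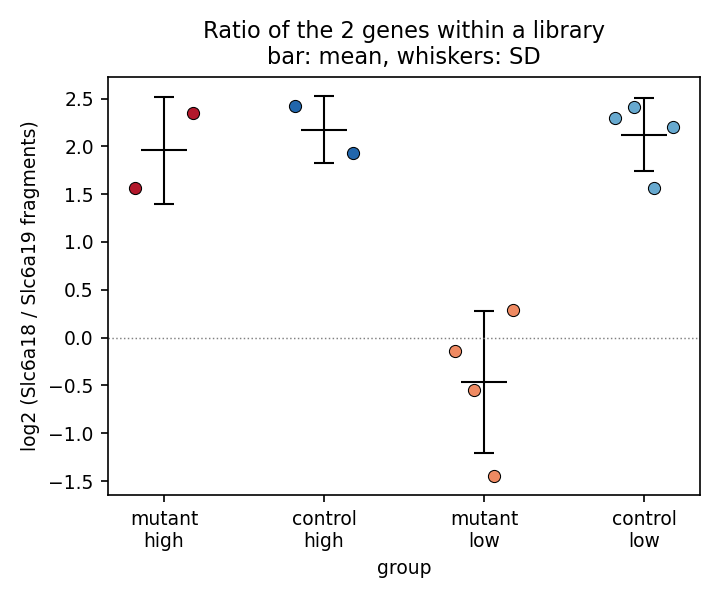
Log2 ratio of Slc6a18 to Slc6a19 fragments in each library (points), with group means and SD, for the 4 groups on the horizontal axis. The 4 mutant low libraries lie between -1.45 and 0.29, below the other 8, which lie between 1.56 and 2.42.

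The authors divided fragments between overlapping transcripts, and most Slc6a18 fragments went to 1 transcript, uc007rdw.2. It took 86.7% and 96.8% of the locus in mutant high libraries and 81.5% and 74.7% in control high libraries. In control low libraries it took 99.99%, 99.99%, 23.1% and 71.4%, so replicates 3 and 4, the libraries numbered above 7, stood apart from replicates 1 and 2. The remainder there went to uc007rdv.2, with 76.6% in replicate 3 and 28.4% in replicate 4. In mutant low libraries uc007rdw.2 took 99.4% to 99.8%, but of at most 9 fragments each.

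Another transcript, uc007rdx.2, was given 499.5 fragments (9.25%) in control high replicate 1 and at most 0.272 in any other library. The transcript uc011zbr.1 took 1.51% and 1.99% in mutant high and 1.04% and 4.70% in control high libraries, and uc007rdv.2 took 11.5% and 1.19% in mutant high and 8.18% and 20.6% in control high libraries. Both ranges overlapped. The transcript uc007rds.2 held 0 fragments in all 12 libraries. The share of uc007rdw.2 averaged 91.8% in mutant high and 78.1% in control high cells, and both mutant high libraries lay above both control high libraries. The exact permutation p was 0.333 (two-sided), the smallest that 2 against 2 allows, so this test could not pass at any difference. Between control high and control low cells the shares averaged 78.1% and 73.6% and overlapped (exact permutation p = 0.867, two-sided, where 2 against 4 cannot go below 0.0667).

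The main Slc6a19 transcript, uc011zbs.1, took 98.9% and 100% of its locus in mutant high libraries, against 97.8% and 95.2% in control high libraries. It took over 99.9% in each control low library. The high groups did not overlap with each other, and control high did not overlap with control low cells. Both exact permutation p-values, 0.333 for mutant high against control high and 0.0667 for control high against control low cells (two-sided), were the smallest these group sizes allow. Over the 4 share tests the lowest adjusted p was 0.267.

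**Figure D3:**
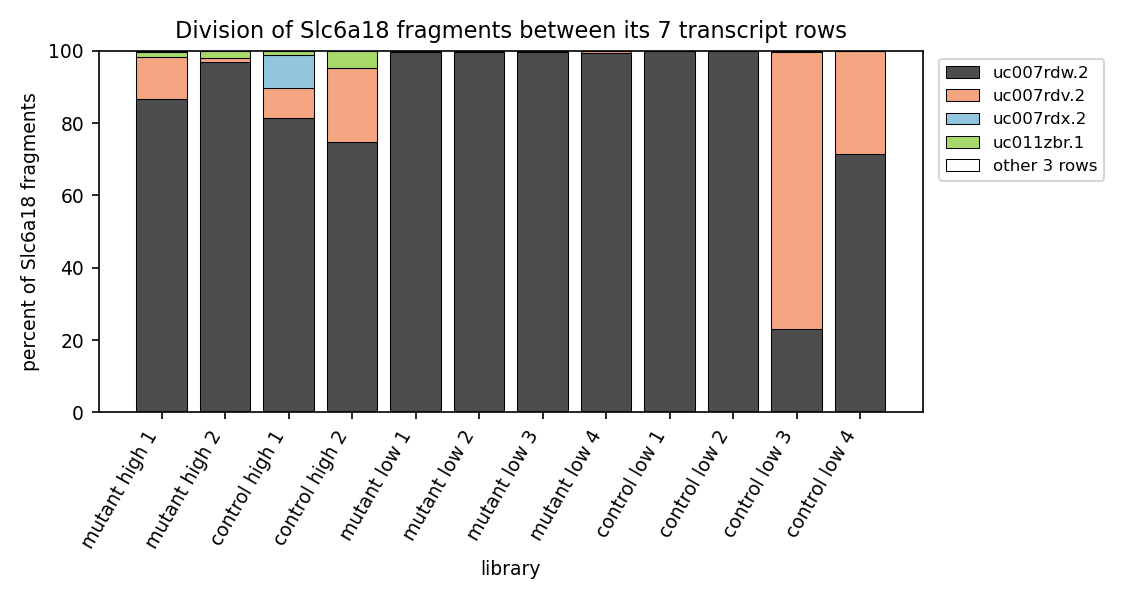
Share of the Slc6a18 fragments (percent, vertical axis) that the authors' estimate gave to each transcript, in each of the 12 libraries. The main transcript takes 23.1% in control low replicate 3 and from 71.4% to 99.99% in the other 11 libraries.

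Like most loci tested, most of those around the pair were not called lower in mutant cells. Within 250 kb of the window on either strand lay 9 other loci, of which 7 passed the filter on low counts. In mutant high against control high cells, 3 of the 7 were called higher, where 16.3% of all loci were. Of the 7, 1 was called lower, where 11.2% of all loci were. Without control high replicate 2, 1 of the 7 was called higher. The locus closest to Slc6a18 on the side away from Slc6a19, from 73764448 to 73786489 on the plus strand, stood at 12.1 and 6.89 CPM in mutant high and 3.54 and 1.42 CPM in control high libraries. The difference was 1.89 on the log2 scale (SE 0.45, adjusted p = 0.00645 with edgeR). It ran from 1.42 to 2.77 over 23 alternative settings, and the call was lost in 3 of them, among them without control high replicate 2 (1.42, edgeR adjusted p = 0.0770) and without mutant high replicate 1 (1.43, edgeR adjusted p = 0.0595).

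The others called higher were those from 73604830 to 73651986, by 2.11 on the log2 scale (SE 0.44, adjusted p = 0.00316 with edgeR), and from 73956775 to 73985079, by 1.96 (SE 0.48, adjusted p = 0.00853 with edgeR). The first of these calls was kept in all 23 settings. The second was lost without control high replicate 2 (1.74) and without mutant high replicate 2 (1.24). Over the 23 settings the log2 fold change of this second locus ran from 1.24 to 11.0. The 1 called lower, from 73741748 to 73758053, had 507 and 436 CPM in mutant high and 841 and 695 CPM in control high libraries. The difference was -0.70 on the log2 scale (SE 0.25, adjusted p = 0.0483 with edgeR), and the call was lost in 14 of 23 alternative settings.

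In mutant low against control low cells edgeR called 0 of the 7 neighbours, with 2 at an unadjusted p under 0.05, both higher in mutant low cells. DESeq2 called 1 and limma-voom 0, and 8.03% of all loci were called in either direction by edgeR. The neighbours' log2 fold changes ran from -0.29 to 1.02. In control high against control low cells 2 neighbours were called higher and 2 lower, where 25.3% of all loci were called higher and 27% lower. The larger of those 2 higher values was 0.99 on the log2 scale, and without control high replicate 1 neither was called. In mutant high against mutant low cells edgeR called 0 of the 7 higher and 2 lower, where 19% and 13.2% of all loci were; neither DESeq2 nor limma-voom called any higher, and both neighbours at an unadjusted p under 0.05 were the lower ones. Of these 2 lower calls, that at 74049909 to 74075215 was lost in 10 of 23 alternative settings, 6 of which left out 1 library. The other was kept in all 23.

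The labels do not state whether counting used strand, and the SMART-Seq kit they name does not record it, so fragments of Slc6a19 and of a plus-strand locus that overlaps its upstream end (73837273 to 73847298) could not be separated. That locus held 1 fragment in each of 3 libraries and 0 in the other 9, and it was not tested.

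**Figure D4:**
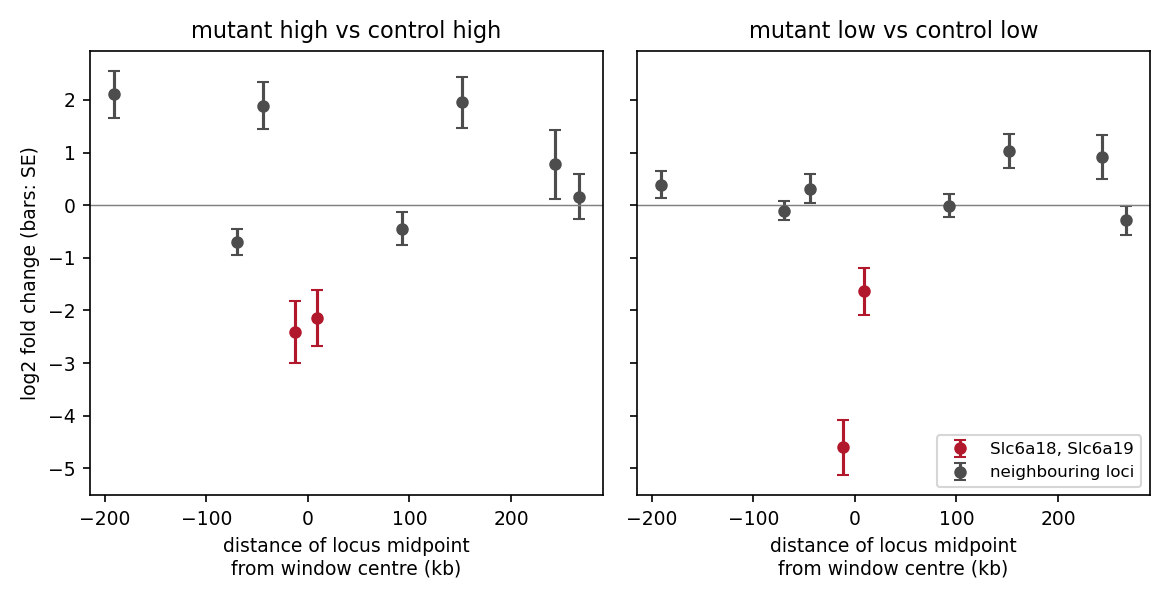
Log2 fold change with SE (bars) of Slc6a18 and Slc6a19 (red) and the 7 neighbouring loci tested (grey), against the distance in kb of each locus from the centre of the window, for mutant high over control high and mutant low over control low cells. The pair lies at -2.41 and -2.14 in high and at -4.60 and -1.64 in low cells, while neighbours lie between -0.70 and 2.11 in high and between -0.29 and 1.02 in low cells.

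Many loci followed the same levels across the 12 samples. Across log2(CPM + 1), 205 of 13749 loci had a Pearson correlation of at least 0.95 with Slc6a18 and 526 with Slc6a19; the 12 points fall into 4 groups and share the libraries, so these values describe the order of the groups and have no p. The genes correlated with each other at 0.97, and Slc6a19 stood in place 110 among the loci ranked by likeness to Slc6a18. About their group means, the correlation of the genes was 0.74.

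The loci most like Slc6a18 were on chromosome 2 from 69262391 to 69424124, chromosome 7 from 51827814 to 51842216, chromosome 17 from 43611277 to 43639722, chromosome X from 136335346 to 136345927 and chromosome 18 from 35774257 to 35786881 (r of 0.993 to 0.995). The chromosome 2 locus averaged 273 CPM (mutant high), 1799 CPM (control high), 4.39 CPM (mutant low) and 38.4 CPM (control low). The closest to Slc6a19 were on chromosome 12 from 85380418 to 85394757 and from 70847834 to 70891694, chromosome 14 from 56372891 to 56377261, chromosome 6 from 121250313 to 121287736 and chromosome 5 from 66407795 to 66543163 (r of 0.991 to 0.993). The first of these averaged 37.5 CPM (mutant high), 214 CPM (control high), 1.71 CPM (mutant low) and 5.38 CPM (control low). None of these 10 loci is named in the file.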

How the data were processed

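RNA sequencing was analysed from 12 samples. The deposited values are estimated counts of fragments per UCSC transcript on mm9, not normalized and called raw fragments of CuffDiff2 in the file's title. Bowtie2, HTSeq and DESeq2 are named without roles in the submitters' processing notes; for alignment settings, shared reads and strandedness, the sources used here give nothing. Transcripts without a position numbered 303 and entered no locus. Start positions are printed as deposited.

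Groups came from the titles. Transcripts overlapping on a strand were summed to loci (99.6% to 99.9% of the sums were whole within 0.01) and rounded. All 12 samples entered 1 edgeR 4.0.16 quasi-likelihood fit of 4 groups in R 4.3.3 (TMM, filterByExpr, robust), which tested 13749 loci; p-values were adjusted over these by Benjamini-Hochberg at 0.05, two-sided. SEs were derived from the F statistics. The fit was tested on simulated counts. DESeq2 1.42.0 and limma 3.58.1 were alternatives.

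The members and lists were chosen with earlier results of these data known. A p for a gene's level, or for the ratio of the genes, is given for mutant high against control high cells only. That comparison shares no sample with mutant low against control low cells, in which Slc6a18 was named. Each high library nonetheless carries the description number of a low library of its genotype. The labels do not say whether such libraries come from the same animal, so independence from that naming is not established. The spread behind the p of a level was still estimated from all 12 samples, the low ones included. The planned tests of the ratio in the other comparisons were left out. Transcript shares, which the earlier naming rule did not use, were tested where every library had at least 20 fragments of the locus, control high against control low cells included. Named loci were the members, all loci within 250 kb, and for each member the 5 loci with the highest Pearson correlation of log2(CPM + 1). Marker and transporter lists could not be matched to the identifiers. The settings on description numbers and on chromosome M were chosen after seeing the data. Fragments carry no stated molecular identifiers, so counting intervals cover counting error only.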

Additional observations from a re-analysis of the deposited data

Results flagged for a closer look

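The locus on chromosome 13 from 73870541 to 73954190 had 1 mutant low library, replicate 3, far from the other 3 of its group, at 104 CPM against 62.0 to 67.4 CPM. Chance marks about 1 in 20 groups this way, and 22 groups were examined. At the locus from 73604830 to 73651986, the interaction test gave a mutant effect more positive by 1.72 on the log2 scale in high than in low cells (SE 0.51, edgeR adjusted p = 0.0453, where 10.3% of all loci were called). The call was lost in 12 of 22 alternative settings. Values of Slc6a18 and Slc6a19 in groups of 4 had no library that far from the others.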

How the results depend on the processing

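No log2 fold change of either gene changed sign in any setting. The Slc6a19 mutant effect in high minus low cells, -0.50 in the report's fit, nonetheless ran from -0.88 to -0.04 when 1 sample was left out. In mutant high against control high cells, treating transcripts as features gave -2.16 for the main Slc6a18 transcript (edgeR adjusted p = 0.219) and -2.07 for that of Slc6a19 (edgeR adjusted p = 0.0922), and leaving out 1 sample gave -2.78 to -1.91 for Slc6a18 and -2.35 to -1.93 for Slc6a19. DESeq2, limma-voom, other factors, filters, the 2 groups alone and leaving out chromosome M kept both calls, as did the replicate block (-2.43 and -2.14). The ratio difference in high cells ran from -0.61 to 0.18 without 1 library each. Slc6a18 in mutant high over mutant low cells was 7.12 with a replicate block by title and 7.34 by description number, against 7.74; its mutant effect in high minus low cells was 1.57 by description number, against 2.19. Whether title numbers pair the samples was not settled. In control libraries they part from description numbers, since high replicate 1 and low replicate 2 share number 6. High and low libraries of the same description number, 5 to 8, correlated at 0.25, -0.03, 0.16 and -0.08 about the group means. By title number, the 4 pairs of mutant low and control low libraries correlated at 0.11, 0.36, 0.07 and 0.55. Of 8 samples, 3 correlated best with their own title number. Counts over all loci moved more: called lower in high cells were 565 to 1970 (1541 in the report's fit) and higher 1162 to 2484 (2239); in low cells lower 62 to 584 (441) and higher 195 to 878 (663). For high over low cells, lower calls ran from 2324 to 3833 in control (3719) and 857 to 2065 in mutant kidneys (1814). Interaction calls were 1002 positive and 420 negative, and ran from 359 to 1225 and from 114 to 720 elsewhere (1055 and 720 with DESeq2). The loci most like a gene depended on the measure: with Spearman's rho 0 of 5 remained for Slc6a18 and 2 of 5 for Slc6a19, and about group means 0 and 1. All 4 mutant low libraries held fewer than 20 Slc6a18 fragments, which left no ratio there under a minimum of 20 for each gene.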
